A study of Mus musculus with 6 samples.

Results

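Cdkn1a, Gadd45a, Btg2, Ccnd3, Hes1 and Ldha are 6 mouse genes that stand downstream of p53, Notch or MYC or drive the cell cycle. They were taken by symbol from a table of 389 genes, in which each had 1 row, 5 of them as targets of transcription factors that USP28 is known to stabilise and Ccnd3 as a cyclin. The samples were livers of mice without Usp28 in any cell of the body (KO, 3 libraries) and of wild-type mice (WT, 3 libraries). All animals of both groups ate a methionine-choline deficient diet for 4 weeks from the age of 8 weeks. This diet impairs the export of fat from the liver and is used as a model of steatohepatitis. Strain, sex and the construction of the knockout allele are not in the labels, nor is it stated that each library came from a separate animal, so a p-value here reflects only how much these libraries vary, which may be technical. The table was already a selection by its authors of genes that differed between KO and WT, with a smallest absolute log2 fold change of 1.004 and a largest FDR of 0.0494 in the authors' deposited table. That all 6 genes differ between the groups therefore follows from their presence in it. Their sizes, their spread and the order of the single libraries are what the values below describe.

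USP28 is a deubiquitinase: it removes ubiquitin chains from proteins and so delays their destruction. As background, it counteracts the ubiquitin ligase FBXW7, which marks MYC, the intracellular part of NOTCH1 and JUN for degradation, and it acts with 53BP1 on p53. p53 switches on Cdkn1a, Btg2 and Gadd45a after DNA damage and other stress. Notch signalling switches on Hes1, and MYC switches on Ldha.

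The libraries held between 20350000 and 24160000 reads, as worked out by comparing each gene's count with its FPKM (its fragments scaled to transcript length and library size). The 389 listed genes took 5.45% to 8.81% of the reads in WT and 3.73% to 3.77% in KO. Neither Usp28 nor any of the 9 hepatocyte markers had a row, so the genotype and the tissue were not checked against their defining genes. WT replicate 3 had the highest summed level of the 6 listed markers of monocytes and recruited macrophages. The FPKM total was 67.1 in WT replicate 1, 30.8 in WT replicate 2 and 168 in WT replicate 3, while the KO libraries held 20.7 to 28.9. Lgals3, Mmp12 and Cd14 made up most of the total in WT replicate 3, at 76.1, 53.4 and 23.3 FPKM, whereas Gpnmb was nearly as high in WT replicate 1 (11.3 FPKM) as in WT replicate 3 (11.5 FPKM). In whole liver, fewer cells of a type and less RNA per cell cannot be told apart.

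In KO liver, Btg2, Hes1, Ldha, Cdkn1a and Ccnd3 were lower and Gadd45a was higher. Among the p53 targets, Btg2 and Cdkn1a thus moved against Gadd45a. In edgeR's quasi-likelihood test with Benjamini-Hochberg adjustment over the 389 genes, all 6 passed an adjusted p of 0.05. So did 99.7% of the listed genes, which the selection fixes, and 59.9% passed as lower and 39.8% as higher. The median log2 fold change of the 6 genes was -1.27, beside -1.10 over all listed genes. In 4 of the 6 genes the WT and KO libraries did not overlap, against 93.3% of the listed genes. The 2 exceptions were Cdkn1a and Gadd45a. An exact two-sided permutation test of log2(FPKM + 1) gave p = 0.1 for each of the 4 separated genes, the smallest that 3 against 3 libraries allow, and p = 0.2 for Cdkn1a and for Gadd45a.

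**Figure D1:**
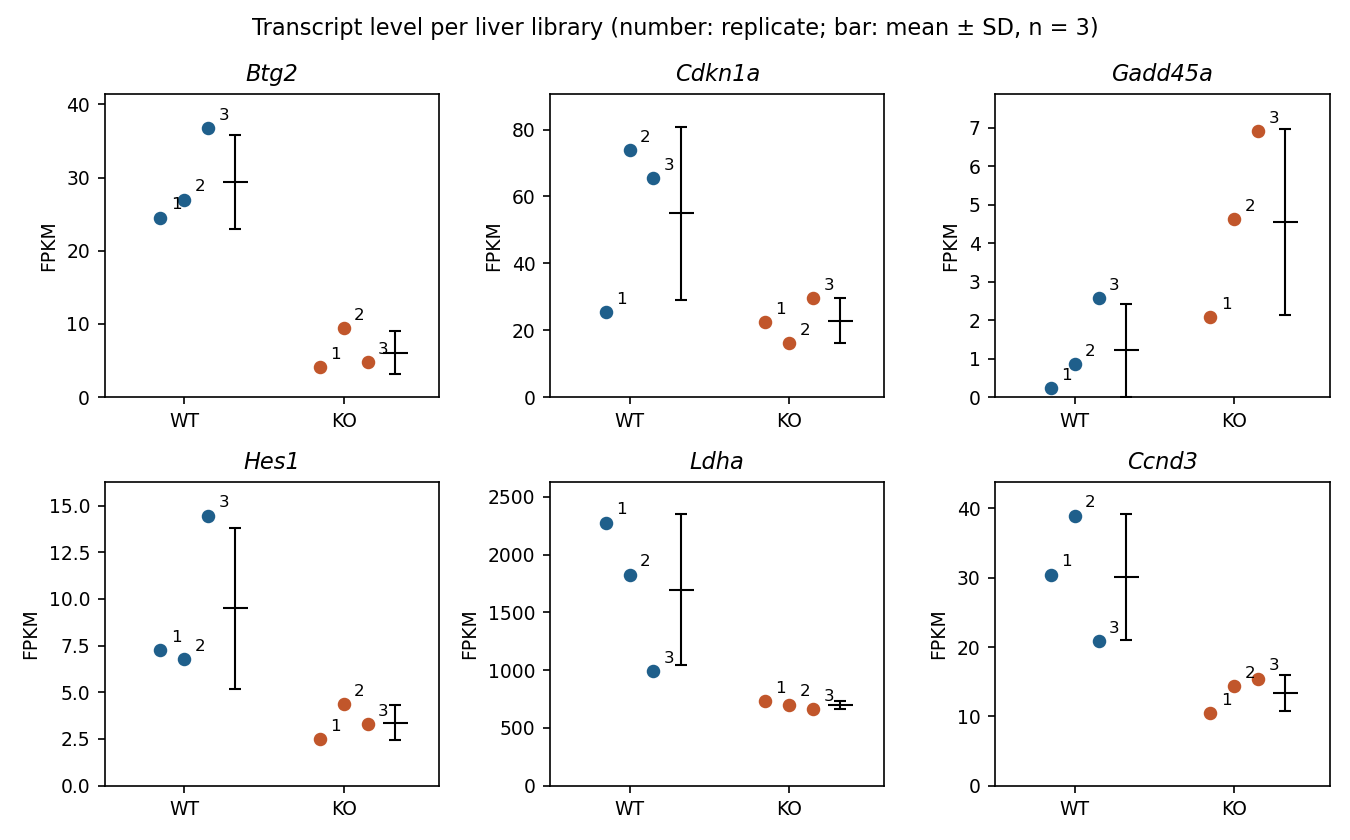
FPKM of each gene (vertical axis, from 0) in the 3 WT and 3 KO livers, each point a library with its replicate number and each bar the mean ± SD (n = 3). The WT and KO points are apart for Btg2, Hes1, Ldha and Ccnd3 and overlap for Cdkn1a and Gadd45a.

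Promoter sequence shows which letters known from these pathways lie just before the genes. RefSeq windows of 250 bases before a transcription start (build GRCm38.p6) were found for 5 of the 6 genes, 8 windows in all. The table used held no window for Hes1. Letters were searched on both strands. The p53 half-site was searched as a pattern of 10 letters, some of which may vary, and only full matches were counted. It occurred at 2 places in the window before the upstream start of Cdkn1a, at chr17:29090729-29090978 on the plus strand. The window of Gadd45a, at chr6:67037408-67037657 on the minus strand, held 1. No other of the 8 windows held one, that of Btg2 and the other window of Cdkn1a included. Such a half-site stood in 7.13% of all 32851 windows. The palindromic E-box CACGTG, the site of MYC and MAX, occurred at 2 places before Ldha, at chr7:46845554-46845803 on the plus strand. It was in no other of the 8 windows, the other window of Ldha included, and stood in 6.02% of all windows. The cyclic AMP response element TGACGTCA occurred before Ldha and before Btg2, at chr1:134079156-134079405 on the minus strand, and stood in 1.55% of all windows. The windows are shown 5′ to 3′ in the direction of the gene, in lower case. Capitals mark the p53 half-sites in Cdkn1a and Gadd45a, the cyclic AMP response element in Btg2, and the E-boxes and the cyclic AMP response element in Ldha.
Cdkn1a: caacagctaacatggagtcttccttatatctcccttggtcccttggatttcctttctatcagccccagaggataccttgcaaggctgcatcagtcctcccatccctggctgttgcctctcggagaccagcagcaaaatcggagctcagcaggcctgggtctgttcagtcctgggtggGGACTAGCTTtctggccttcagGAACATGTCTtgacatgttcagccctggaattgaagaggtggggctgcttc
Gadd45a: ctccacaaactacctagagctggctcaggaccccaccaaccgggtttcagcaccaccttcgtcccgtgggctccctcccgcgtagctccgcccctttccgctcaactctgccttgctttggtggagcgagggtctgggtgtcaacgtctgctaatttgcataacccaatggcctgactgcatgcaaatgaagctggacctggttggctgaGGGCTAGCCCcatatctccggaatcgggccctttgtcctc
Btg2: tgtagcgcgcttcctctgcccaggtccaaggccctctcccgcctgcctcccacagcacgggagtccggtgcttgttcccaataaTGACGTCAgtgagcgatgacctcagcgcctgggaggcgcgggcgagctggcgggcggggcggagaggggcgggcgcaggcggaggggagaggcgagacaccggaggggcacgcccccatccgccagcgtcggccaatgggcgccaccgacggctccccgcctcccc
Ldha: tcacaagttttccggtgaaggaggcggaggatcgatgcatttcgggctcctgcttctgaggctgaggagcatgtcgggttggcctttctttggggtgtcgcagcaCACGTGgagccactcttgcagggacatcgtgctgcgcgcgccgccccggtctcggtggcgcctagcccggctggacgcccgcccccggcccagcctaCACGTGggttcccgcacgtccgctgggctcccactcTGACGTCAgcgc
The half-sites of Cdkn1a began 73 and 51 bases before the start, that of Gadd45a 40 bases, the E-boxes of Ldha 145 and 48 bases, and the cyclic AMP response element 12 bases before Ldha and 166 before Btg2. Each E-box also holds the hypoxia response core ACGTG, which occurred 5 times in this Ldha window, counting both strands, and stood in 16.6% of all windows. GGGCGG, the GC box, occurred in the printed windows of Btg2, Gadd45a and Ldha but not in that of Cdkn1a, and stood in 32.7% of all windows. It was also in the other window of Cdkn1a and in both windows of Ccnd3. CCAAT (33.9% of windows) occurred in the printed windows of Btg2 and Gadd45a and in a window of Ccnd3. CACNAG (36.7%), the site of HES proteins, occurred in both windows of Ldha, in the other window of Cdkn1a and in a window of Ccnd3. The letters GTGGGAA of the Notch partner RBPJ (5.42% of windows), TATAAA (12.4%), TGANTCA (6.75%) and TTGCATCA (0.792%) were in none of the 8 windows. The printed windows of Ldha and Btg2 held the letters CG 25 and 27 times, against a median of 6 over all windows. The E-box and the cyclic AMP response element contain CG, and the shares given are not matched for this. A match of letters is a description of the window and not a measured binding site.

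Btg2, an antiproliferative gene whose product recruits the deadenylase that shortens messenger RNA tails, was lower in KO, with the largest absolute log2 fold change of the 6 when all libraries entered at their recovered depth. That of Gadd45a was larger under TMM scaling, under the size factors of DESeq2, and without WT replicate 3 or KO replicate 1. It lies on chromosome 1, 134075170 to 134079120 (ENSMUSG00000020423, positions of GRCm38 here and below), with 1 annotated transcript. Its level was 24.5, 27.0 and 36.7 FPKM in WT replicates 1, 2 and 3 and 4.07, 9.42 and 4.79 FPKM in KO replicates 1, 2 and 3. Every WT library was above every KO library, and the nearest pair, WT replicate 1 and KO replicate 2, still differed 2.61-fold. The means were 29.4 ± 6.45 FPKM in WT and 6.09 ± 2.90 FPKM in KO (SD, n = 3 each), 4.82-fold lower by edgeR (log2 fold change -2.27 ± 0.39, SE, adjusted p = 0.00290). Among KO libraries, replicate 2 was more than the SD above the mean and the other two lay close together. Btg2, too, was highest in WT replicate 3, the library with 168 FPKM of macrophage markers, and without it the log2 fold change was -2.08. It was also the gene with the lowest p of the 6 in the authors' deposited table (FDR 1.65e-11), in which its p ranked 18 of 389.

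Cdkn1a encodes p21, an inhibitor of cyclin-dependent kinases and the best-known target of p53 (ENSMUSG00000023067, chromosome 17, 29090976 to 29100727). It stood at 25.4, 73.9 and 65.4 FPKM in WT replicates 1, 2 and 3 and at 22.5, 16.2 and 29.6 FPKM in KO replicates 1, 2 and 3. WT replicate 1 lay inside the KO range, below KO replicate 3, while the other WT libraries were far above it. The means were 54.9 ± 25.9 FPKM in WT and 22.8 ± 6.73 FPKM in KO (SD, n = 3 each), 2.40-fold lower (edgeR log2 fold change -1.27 with an SE of 0.43, adjusted p = 0.0175). The edgeR adjusted p was 0.0628 without WT replicate 2, 0.0551 without KO replicate 1 and 0.0766 without KO replicate 2. The call was thus lost when any 1 of these libraries was left out. Without KO replicate 1 the log2 fold change was still -1.25, and its SE rose to 0.54. Over all listed genes, 345, 282 and 279 passed in these fits, against 388 with all libraries. The WT spread was wide: its SD on the log2(FPKM + 1) scale was 0.82, above that of 87.5% of the 320 listed genes with a mean of at least 1 FPKM. An antisense gene, AC167363.2, shares exon bases with Cdkn1a, and whether counting used strand is not given in the sources used here.

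Gadd45a encodes a small stress protein that binds PCNA and p21 and is induced by DNA damage (ENSMUSG00000036390, chromosome 6, 67035096 to 67037457). It was the least abundant of the 6 in WT and the single one higher in KO. WT replicates 1, 2 and 3 held 6, 25 and 64 reads, or 0.24, 0.85 and 2.57 FPKM. KO replicates 1, 2 and 3 held 53, 125 and 180 reads, or 2.08, 4.62 and 6.91 FPKM. WT replicate 3 was above KO replicate 1, and the other WT libraries were below all KO libraries. The 6 reads of WT replicate 1 carry a 95% Poisson interval of 2.20 to 13.1 reads, which covers counting error only. The means were 1.22 ± 1.21 FPKM in WT and 4.54 ± 2.42 FPKM in KO (SD, n = 3 each), 3.68-fold higher (edgeR log2 fold change 1.88 with an SE of 0.72, adjusted p = 0.0270). The log2 fold change was 3.0 without WT replicate 3. The call was lost when WT replicate 1 (edgeR adjusted p = 0.0513), WT replicate 2 (0.0778), KO replicate 2 (0.0776) or KO replicate 3 (0.0972) was left out. In these fits, in this order, 314, 345, 279 and 314 of the listed genes passed, against 388 with all libraries. The log2 fold change was then 1.40, 1.67, 1.86 and 1.46, and its SE was 0.62, 0.83, 0.89 and 0.80. E230016M11Rik shares exon bases with Gadd45a on the other strand, so some of the reads counted for Gadd45a may belong to that gene.

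The ratio of Cdkn1a to Gadd45a within each library restates their opposite directions and is given as a description. The Cdkn1a level was 106, 87.0 and 25.4 times that of Gadd45a in WT replicates 1, 2 and 3, per length in FPKM. In KO replicates 1, 2 and 3 it was 10.8, 3.50 and 4.29 times. The ratio of Btg2 to Cdkn1a, both lower in KO, was 0.966, 0.365 and 0.562 in WT and 0.181, 0.582 and 0.162 in KO, in the order of replicates 1, 2 and 3.

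Hes1 encodes a transcriptional repressor that mediates much of the Notch response (ENSMUSG00000022528, chromosome 16, 30064384 to 30067796). Its level was 7.26, 6.77 and 14.5 FPKM in WT replicates 1, 2 and 3 and 2.48, 4.37 and 3.28 FPKM in KO replicates 1, 2 and 3. WT replicate 3 stood well above the other WT libraries, and the groups did not overlap. The means were 9.50 ± 4.31 FPKM in WT and 3.38 ± 0.949 FPKM in KO (SD, n = 3 each), 2.81-fold lower (edgeR log2 fold change -1.49 with an SE of 0.39, adjusted p = 0.00876). WT replicate 3, where Hes1 was highest, was also the library with the highest sum of the macrophage markers, 168 FPKM, and without it Hes1 still passed, with a log2 fold change of -1.05 (edgeR adjusted p = 0.00949). The 1 listed marker of bile duct cells, in which Notch signalling is prominent, was Cldn4, at 3.25 FPKM in WT replicate 3 and between 0.03 and 0.41 FPKM in the other libraries. This pattern was not particular to Cldn4. Timp1, the 1 listed marker of stellate cells and fibroblasts, stood at 3.55 FPKM in WT replicate 3. It was between 0.05 and 0.45 FPKM in the other libraries. The part of other cell types in the Hes1 level was not tested.

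Ldha encodes the lactate dehydrogenase subunit that favours conversion of pyruvate to lactate, and is a target of MYC and of hypoxia-inducible factor (ENSMUSG00000063229, chromosome 7, 46841475 to 46855627). It was by far the most abundant of the 6, with 22912 to 73318 reads in a library. WT replicates 1, 2 and 3 held 2277, 1826 and 991 FPKM, and KO replicates 1, 2 and 3 held 731, 701 and 664 FPKM. The KO libraries were nearly equal, WT replicate 3 lay nearest to them, and the groups did not overlap. The means were 1698 ± 652 FPKM in WT and 698 ± 33.6 FPKM in KO (SD, n = 3 each), 2.42-fold lower (edgeR log2 fold change -1.28 with an SE of 0.40, adjusted p = 0.0138). The call was lost when WT replicate 1 (edgeR adjusted p = 0.0511), KO replicate 2 (0.0568) or KO replicate 3 (0.0551) was left out. The annotation names 2 pseudogenes of Ldha, with which reads can be shared.

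Ccnd3 encodes cyclin D3, a partner of the kinases that start the cell cycle (ENSMUSG00000034165, chromosome 17, 47505051 to 47599691). It stood at 30.5, 39.0 and 20.9 FPKM in WT replicates 1, 2 and 3 and at 10.5, 14.3 and 15.5 FPKM in KO replicates 1, 2 and 3. The groups did not overlap, with WT replicate 3 being 1.35-fold above KO replicate 3. The means were 30.1 ± 9.06 FPKM in WT and 13.4 ± 2.61 FPKM in KO (SD, n = 3 each), 2.27-fold lower (edgeR log2 fold change -1.18 with an SE of 0.32, adjusted p = 0.00931). Its absolute log2 fold change ranked 285 of 389 in the authors' deposited table. Bysl overlaps its exons on the other strand, and the annotation names 1 pseudogene.

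**Figure D2:**
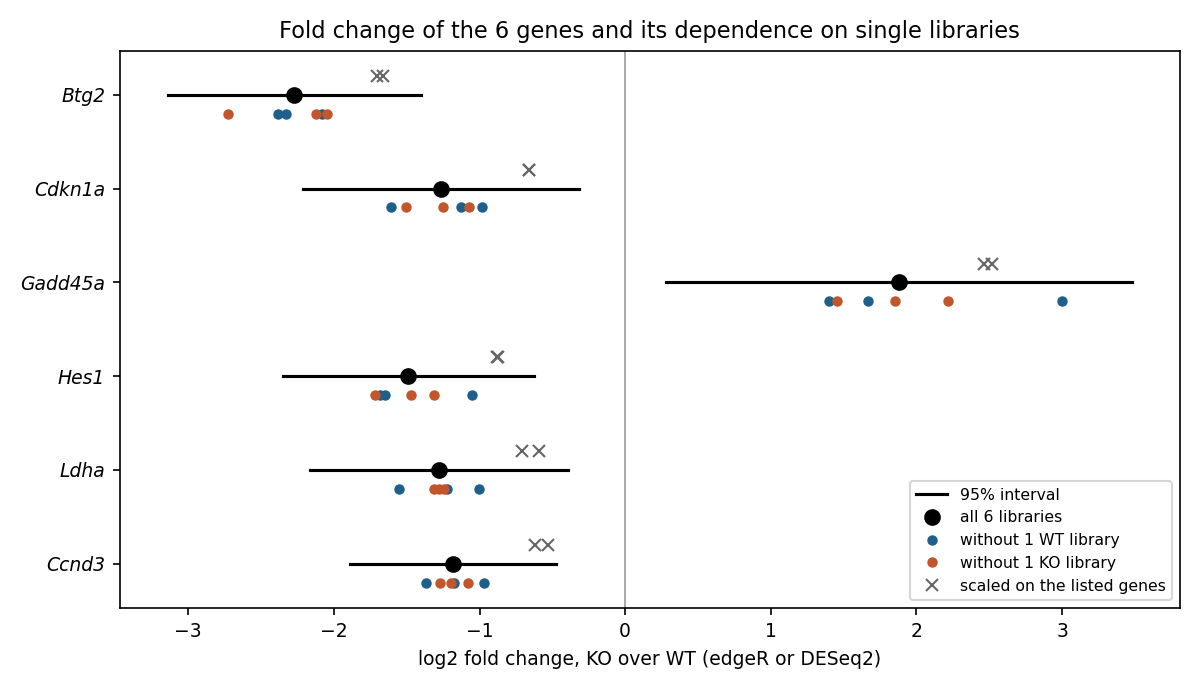
Log2 fold change of KO over WT (horizontal axis) for each gene, with the 95% interval from edgeR (black), the values without 1 library (coloured points) and those after scaling on the listed genes (crosses, TMM in edgeR and the size factors of DESeq2). All values of a gene lie on one side of 0, and Gadd45a reaches 3.0 without WT replicate 3.

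No direction changed in any fit made, but the size depended on the scaling. Scaling that takes most listed genes as unchanged moved the median of all listed genes up by 0.58 (TMM) or 0.66 (DESeq2's size factors) on the log2 scale. It turned the split of calls from 40.0% higher to 62.4% and 65.3% higher. Under TMM, Btg2, Hes1 and Gadd45a passed, with log2 fold changes of -1.70, -0.88 and 2.52, and the other three did not (64.3% of the listed genes passed). Under the size factors of DESeq2, Btg2 and Gadd45a passed, beside 61.6% of the listed genes. The ratio of p to FDR in the authors' deposited table points to 16198 genes tested. Adjusted over that number, edgeR left 0 of the 6 genes, as against 1.29% of the listed genes, and DESeq2 left Btg2 alone, as against 39.4%. The authors' own FDR was under 0.05 for all 6, from 1.65e-11 for Btg2 to 0.0296 for Gadd45a, which their selection fixes. All 6 had an unadjusted p under 0.05 in both tools. So did, in edgeR, at least the 99.7% of listed genes that passed the adjustment over 389 genes, which the selection fixes.

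The single libraries were not ordered alike in the 6 genes. WT replicate 3 was the WT library nearest to the KO mean in Ldha, Ccnd3 and Gadd45a, at 0.51, 0.62 and -0.53 from it on the log2(FPKM + 1) scale. In Btg2 and Hes1 it was the farthest, at 2.49 and 1.84. In Cdkn1a the nearest was WT replicate 1, at 0.19, and WT replicate 3 stood at 1.52. Among KO libraries, replicate 2 was the highest in Btg2 and Hes1 and the lowest in Cdkn1a.

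**Figure D3:**
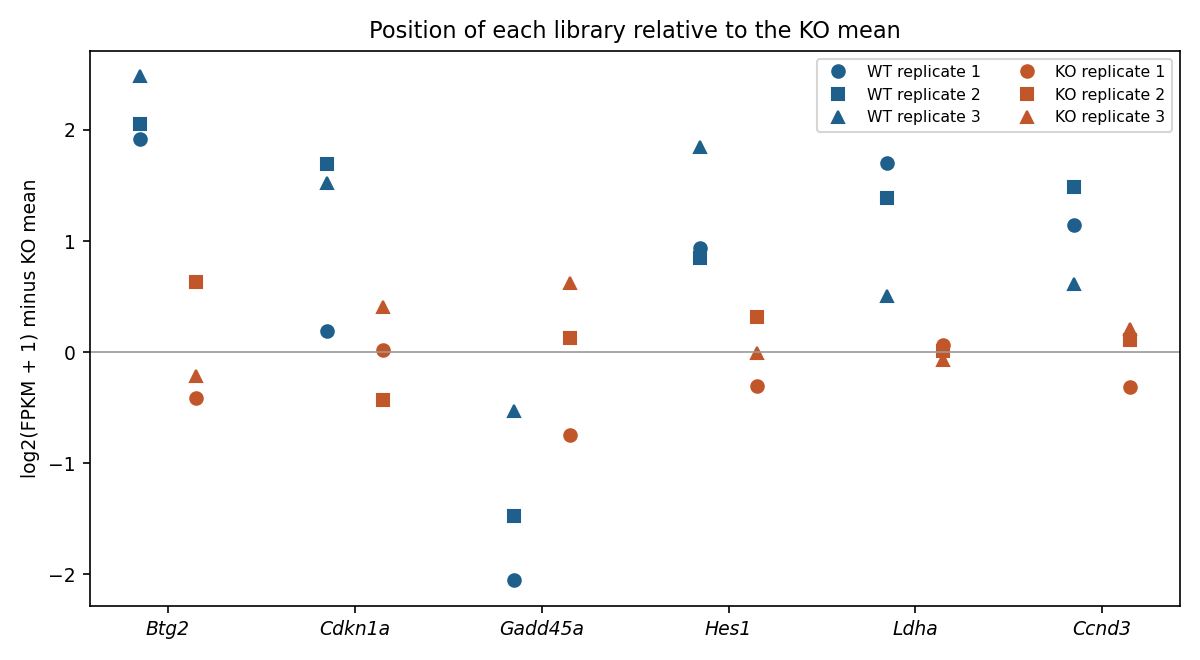
Distance of each library from the KO mean on the log2(FPKM + 1) scale (vertical axis) for each gene, with colour for the group and symbol for the replicate. WT replicate 3 (blue triangles) is the WT library nearest to the KO mean for Ldha, Ccnd3 and Gadd45a and the farthest for Btg2 and Hes1.

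Spread within a group differed widely between the genes. In KO the SD of log2(FPKM + 1) was 0.070 for Ldha, smaller than in all but 10.3% of the 320 listed genes with a mean of at least 1 FPKM. It was 0.69 for Gadd45a and 0.55 for Btg2, larger than in 97.2% and 95.6% of those genes. The median over the 320 genes was 0.19 in KO and 0.44 in WT. In WT the SD of Btg2 was 0.29, the smallest of the 6, and that of Ccnd3 was 0.44. On this log2 scale, Btg2 was the one gene of the 6 with a larger SD in KO than in WT, whereas in FPKM its SD was smaller in KO and that of Gadd45a was larger.

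Per length, the mean levels in WT ran from Ldha (1698 FPKM) through Cdkn1a (54.9), Ccnd3 (30.1), Btg2 (29.4) and Hes1 (9.50) to Gadd45a (1.22). Within this order, Cdkn1a and Ccnd3, and Ccnd3 and Btg2, did not differ beyond their SDs. In KO the order was Ldha (698 FPKM), Cdkn1a (22.8), Ccnd3 (13.4), Btg2 (6.09), Gadd45a (4.54) and Hes1 (3.38). There Btg2, Gadd45a and Hes1 overlapped in their SDs. Hes1 and Gadd45a thus stood in the opposite order in the group means of WT and KO.

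Few other genes of these pathways had a row. Among the p53 targets, Mdm2, Ccng1 and Bax had none and were not analysed here. Of 35 genes of the Notch pathway (receptors, ligands, partners and targets) and of 32 of the MYC network, Hes1 and Ldha were the ones with a row.

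Of 38 cell cycle regulators, 4 were listed, all described above, and none of 25 proliferation markers such as Mki67 and Top2a had a row. The relatives Ccnd1, Ccnd2, Gadd45b, Gadd45g and Btg1 had none either. Of 16 genes for USP28, FBXW7 and proteins known to depend on them, Srebf1, which encodes the lipogenic factor SREBP1, was listed and higher in KO (edgeR log2 fold change 1.63 with an SE of 0.50, adjusted p = 0.0136). Its level was 4.57, 3.92 and 15.9 FPKM in the WT libraries and 22.2 to 28.6 FPKM in the KO libraries, and without WT replicate 3 the log2 fold change was 2.54. Trp53, Myc and Notch1, which encode the factors themselves, had no row, so their transcript levels were not compared.

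Beside Ldha, 1 of the 23 targets of hypoxia-inducible factor and 1 of the 22 genes of lactate and pyruvate handling was listed. Slc2a1, which encodes the glucose transporter GLUT1, was lower in KO at 2.72 ± 0.340 FPKM, against 7.21 ± 1.79 in WT (SD, n = 3 each; edgeR log2 fold change -1.39 with an SE of 0.31, adjusted p = 0.00587). Gpt2, which encodes mitochondrial alanine transaminase, was lower at 99.0 ± 4.87 FPKM, against 202 ± 17 in WT (SD, n = 3 each; edgeR log2 fold change -1.03 with an SE of 0.30, adjusted p = 0.0113). In both genes all 3 KO libraries were below all 3 WT libraries, and in 93.3% of the listed genes the groups likewise did not overlap. WT replicate 3 held the highest level of Slc2a1 and of Gpt2, unlike in Ldha.

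The levels of the 6 genes were also set against those of the other listed genes across the 6 libraries. Likeness was the root mean square difference of log2(FPKM + 1), each gene centred on its own mean, among the 319 other listed genes with a mean of at least 1 FPKM. All points share these 6 libraries and the selection on KO against WT, so the differences describe the table only. Ldha had the closest partners, Hsdl2 at 0.064 and Elovl2 at 0.089, which encode a peroxisomal dehydrogenase-like protein and an elongase of long fatty acids. Ccnd3 was closest to Slc25a34 (0.093), a mitochondrial carrier gene, and Fitm2 (0.12), a lipid droplet gene. Hes1 was closest to Hilpda (0.14), which encodes an inhibitor of triglyceride breakdown, and Id1 (0.14), which encodes an inhibitor of transcription factors.

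Btg2 was closest to the metallothionein gene Mt1 (0.21) and to Cdc42ep5 (0.23), which encodes an effector of the GTPase CDC42. Gadd45a was closest to Ddit3 (0.23), which encodes the stress factor CHOP, and Paxx (0.26), which encodes a factor of DNA end joining. The gene closest to Cdkn1a was Gpc1 (0.31), which encodes a cell surface proteoglycan. Ddit3 stood at 3.22, 3.72 and 9.75 FPKM in WT replicates 1, 2 and 3 and at 8.40, 10.6 and 19.2 FPKM in KO replicates 1, 2 and 3. As in Gadd45a, its WT replicate 3 was above its KO replicate 1, and KO replicate 3 was the highest. Ddit3 was picked by likeness over these libraries, so a shared order follows from that choice. With 0.1 in place of 1 added to the FPKM, Ddit3 was not among the 2 genes closest to Gadd45a.

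**Figure D4:**
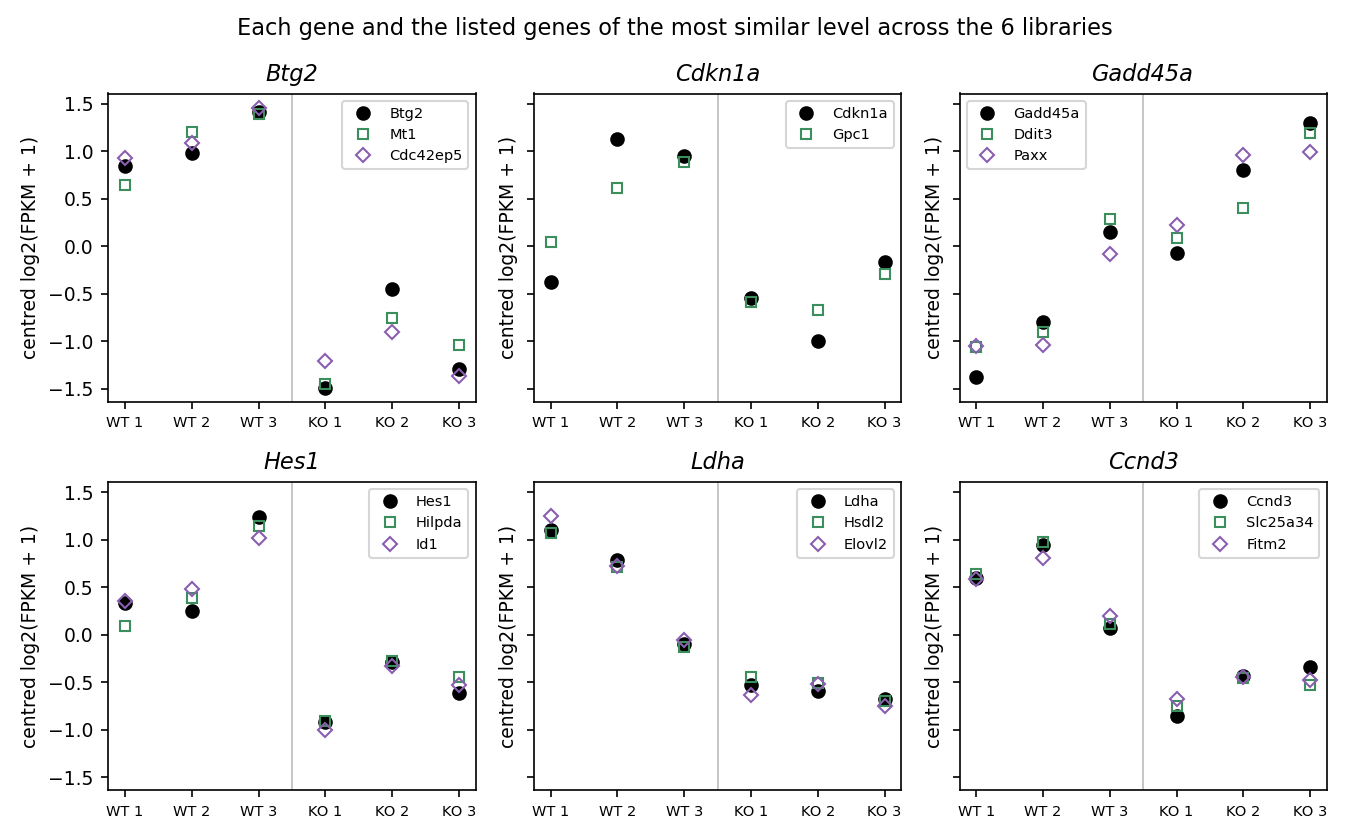
Log2(FPKM + 1) of each gene (black) and of the listed genes most like it (open symbols, 2 genes, or 1 for Cdkn1a), each centred on its own mean over the 6 libraries (horizontal axis: library). The symbols nearly coincide for Ldha and Ccnd3 and are farther apart for Cdkn1a, whose nearest gene is at 0.31.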

How the data were processed

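Liver RNA of 3 KO and 3 WT samples was sequenced. The library kit was NEBNext Ultra, per the labels' protocols. The tools named are HISAT2, RSEM, StringTie 1.3.1 and fastp 0.18.0, per the submitters' processing notes. For their roles, the genome build and the use of strand, the answer is not given in the sources used here. In 1 table, the authors deposited whole-number counts and FPKM per gene and library, with a log2 fold change, a p-value and an FDR of their own comparison, per the file headers. Of 389 IDs, 388 matched GENCODE M21 (GRCm38).

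Depth per library was recovered as the median of count / (FPKM × transcript length) over genes that have a single annotated transcript, a minimum of 50 counts and a minimum of 1 FPKM (38 to 51 genes a library). It served as library size in edgeR 4.0.16 (R 4.3.3), with no filter and no further scaling, since the table is a selection. The SE was obtained from the fold change and the F statistic (absolute log2 value over the root of F). The alternatives used DESeq2 1.42.0, limma 3.58.1, other scalings, filters and pseudocounts (1 and 0.1), a replicate block, and each library left out. The fit was tested on simulated counts. No 2 replicates were alike within counting noise (chi-square over its degrees of freedom, 45.0 to 1005).

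The 6 genes and the gene lists were chosen with earlier results of these data known. Besides the 6 genes, those named are on a list or are the 2 genes most like a member. One gene that this rule names, and the counts over the list of p53 targets that holds it, are not reported here. Genes such as Mdm2, given without values, are examples from the lists. Of the marker lists, 6 of 12 monocyte and macrophage genes and 1 of 8 bile duct genes (Cldn4) had a row. So did 1 of 9 stellate cell and fibroblast genes (Timp1). All of them passed as lower in KO in edgeR, as did 59.9% of the listed genes. Without WT replicate 3, Cd14 (edgeR adjusted p = 0.157), Lgals3 (0.0642) and Timp1 (0.0674) did not pass, while the other markers did. The lists for hepatocytes, endothelium, Kupffer cells, T and NK cells, B cells and neutrophils had no row.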

Additional observations from a re-analysis of the deposited data

How the results depend on the processing

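All 6 genes passed, in the same direction, in DESeq2 with the recovered depth, in limma at both pseudocounts and with both filters on low values. Between 359 and 388 of the 389 listed genes passed in the fits without a filter. With a mean of at least 1 FPKM in limma, 309 of 320 passed. With a mean count of at least 10 in edgeR, 384 of 386 passed. Leaving out 1 library gave log2 fold changes of -2.73 to -2.05 for Btg2, -1.61 to -0.99 for Cdkn1a, 1.4 to 3.0 for Gadd45a, -1.72 to -1.05 for Hes1, -1.55 to -1.0 for Ldha and -1.37 to -0.97 for Ccnd3. Btg2, Hes1 and Ccnd3 passed each time. Between 3 and 6 of the 6 genes passed then, the 3 without KO replicate 2, and between 279 and 372 listed genes. TMM scaling called 250 of the 389 genes and 3 of the 6, and Cdkn1a (-0.66), Ccnd3 (-0.62) and Ldha (-0.71) did not pass. The size factors of DESeq2 called 239 and 2, and Cdkn1a (-0.66), Ccnd3 (-0.53), Hes1 (-0.87) and Ldha (-0.59) did not pass. Adjusted over 16198 genes, edgeR called 5 listed genes and 0 of the 6, with adjusted p from 0.121 for Btg2 (log2 fold change -2.27) through Hes1 (-1.49), Ccnd3 (-1.18), Ldha (-1.28) and Cdkn1a (-1.27) to 1 for Gadd45a (1.88). DESeq2's p-values adjusted likewise, an alternative chosen after seeing the data, called 153 and 1. Ldha (-1.28), Ccnd3 (-1.18), Hes1 (-1.49), Cdkn1a (-1.27) and Gadd45a (1.88) did not pass, with adjusted p from 0.0523 to 0.382. These adjustments rank genes without a row as unchanged. The cause of the other differences was not tested.

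With the replicate number as a block, edgeR called 382 listed genes and all 6 of the set, in the same directions. The numbers were not taken to pair the samples: deviations of same-numbered libraries correlated at 0.048, 0.078 and -0.057, and WT replicate 2 correlated best with KO replicate 3 (0.14). Of the 12 genes found most like one of the 6, 9 were found again on depth-scaled counts and 4 with a pseudocount of 0.1, so these genes depend on the setting. Depth limits Gadd45a most, with 6 reads in WT replicate 1.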
